A study of Mus musculus with 12 samples.

Results

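Colons of mice given DAPP before dextran sulfate sodium (DSS) were compared with colons of mice given DSS alone, 3 arrays against 3, which are 6 of the 12 arrays of the study. Arrays were taken by their treatment label, and probes were used if at least 3 of these 6 arrays gave them a detection p-value, the chance of such a signal from background alone, under 0.05. That left 19886 of 45281 probes, which read 10971 genes. The study measured colon messenger RNA of male mice, aged 7 to 8 weeks, on Illumina bead arrays. Beside these groups it has untreated control mice and mice given DAPP during DSS, and each group has 3 arrays that the labels call biological replicates. DAPP is given in the labels as an abbreviation and in the study as dried apple peel powder, a source of polyphenols. The column names of the DAPP before DSS arrays carry the number 200 without a unit, and those of the DAPP during DSS arrays a different number. The sources used here give no strain, vehicle or DSS schedule. All 6 arrays compared are of mice that had received DSS, so the comparison asks what DAPP taken beforehand altered in the injured colon. All p-values reflect only the spread among these samples.

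DSS is a sulfated polysaccharide that injures the colon epithelium from the lumen and lets bacteria reach the tissue below. Neutrophils and monocytes then enter, cytokines such as TNF and interleukin-6 act through the transcription factor NF-kappaB, and reactive oxygen species build up. Plant polyphenols are studied in this model as scavengers of such species and as activators of NRF2, the transcription factor of antioxidant enzymes that KEAP1 holds back, and of PGC-1 alpha (Ppargc1a), a coactivator of mitochondrial genes.

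Normalised levels are log2 intensities, so that a difference of 1 is a 2-fold difference. Markers of colon were bright: Muc2, the main goblet cell mucin, had a mean of 14.78 in control colon, and Guca2a, the colonocyte peptide guanylin, stood between 14.56 and 14.81 on the DSS and DAPP before DSS arrays. The mean unnormalised signal was 433 to 507 on control and DSS arrays and 601 to 728 on all DAPP arrays, with no overlap, so that signal strength moved with the groups before normalisation. Its part in the results was not tested.

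Replicate 1 of DAPP before DSS stood apart from all other arrays, so most differences and list medians are given with it and without it. Its correlation over the genes tested was 0.862 to 0.904 with the other 5 arrays of the comparison, against 0.945 to 0.979 between those 5. It lay above or below all 11 other arrays of the study in 57.4% of genes, whereas the other arrays did so in 5.46% to 19.1%. It also differed by over 1 log2 unit from the mean of replicates 2 and 3 in 30.4% of genes, higher in 1650 and lower in 1683, while replicates 2 and 3 differed from each other by that much in 6.35%.

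**Figure D1:**
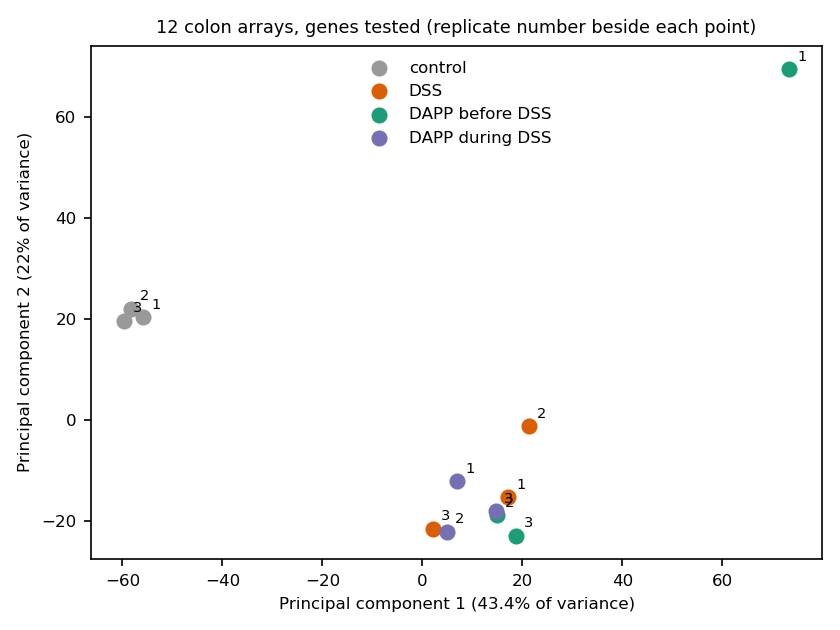
Each point is 1 array, placed by its scores on the first and second principal components of the 10971 genes tested, coloured by group and marked with its replicate number. Replicate 1 of DAPP before DSS lies far from all others, the 3 control arrays lie together, and replicates 2 and 3 of DAPP before DSS lie among the DSS and DAPP during DSS arrays.

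For many genes, probes of the same gene did not move together on this array. For 4100 genes with more than 1 kept probe, the brightest 2 probes disagreed by over 1 log2 unit, each relative to its own median over the 12 arrays, in 29.6% of genes on replicate 1 and in 0.22% to 4.66% on each other array. In other genes the probes fell together. Pfn1, which encodes the actin-binding protein profilin 1, read 6.79 on replicate 1, against 12.19 and 12.53 on replicates 2 and 3 and 11.81 to 12.27 with DSS alone. Another Pfn1 probe was low on replicate 1 too, at 7.77 against 11.25 and 11.49. Zbtb7a, a transcriptional repressor whose probes disagreed, read 6.40 on replicate 1 and 10.85 and 10.58 on replicates 2 and 3 by its brightest probe. By another Zbtb7a probe the values were 10.49, 10.04 and 9.66, so that 1 probe placed replicate 1 lowest and the other highest. St6galnac6, a sialyltransferase, likewise read 4.84 on replicate 1 against 11.27 and 10.99, while another of its probes read 9.55, 9.61 and 9.53. Its remaining probes were low on replicate 1 like the brightest, at 4.64 and 4.51.

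**Figure D2:**
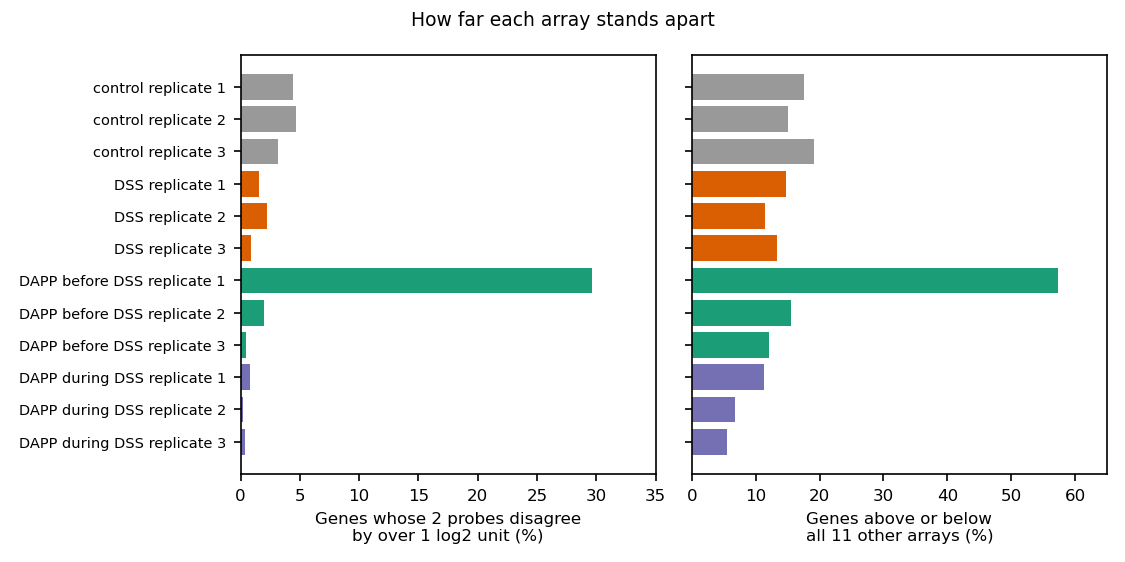
Bars give, for each of the 12 arrays, the percentage of 4100 genes whose 2 brightest probes disagreed by over 1 log2 unit (left) and the percentage of 10971 genes that lay above or below all 11 other arrays (right), coloured by group. Replicate 1 of DAPP before DSS stands at 29.6% and 57.4%, and no other array passes 4.66% and 19.1%.

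The genes on which replicate 1 stood highest above replicates 2 and 3 included genes of lymphoid tissue and of secretory pancreas. Glycam1, a mucin-like ligand made by the high endothelial venules of lymph nodes, read 11.10 on replicate 1 and 4.82 and 6.32 on replicates 2 and 3. Mzb1, a chaperone of antibody-secreting cells, read 11.36 against 6.85 and 8.11. The lymphocyte receptors Tnfrsf13c and Btla were also among the 12 highest, as were Erp27 and Pdia2, protein-folding factors abundant in pancreas. Those lowest on replicate 1 included, beside Pfn1, the epithelial adhesion molecule Ceacam1, which read 8.94 against 14.30 and 13.73. The median of 10 B cell and plasma cell genes, DAPP before DSS minus DSS, was 0.56 with replicate 1 and -0.07 without it.

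No gene passed the test between DAPP before DSS and DSS alone. Under limma, with Benjamini-Hochberg adjustment over 10971 genes, 0 genes (0%) had an adjusted p under 0.05, and the smallest was 0.844. At an unadjusted limma p under 0.05 there were 486 genes (4.43%), 254 higher (2.32%) and 232 lower (2.11%) in the mice given DAPP. Without replicate 1 limma again called 0 genes, with a smallest adjusted p of 0.913 and 585 genes (5.33%) at an unadjusted p under 0.05, 270 higher (2.46%) and 315 lower (2.87%). Over all genes the groups did not overlap in 408 (3.72%) with DAPP before DSS higher and in 296 (2.7%) with it lower, 704 (6.42%) in all. Without replicate 1, when 2 arrays stood against 3, these counts were 912 (8.31%) and 865 (7.88%), 1777 (16.2%) in all. The DSS response was detected in the same fit: 742 genes (6.76%) differed between DSS and control by limma, 462 higher (4.21%) and 280 lower (2.55%) with DSS.

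The arrays bounded most differences. The 95% interval of a gene's difference reached a median of 0.63 to either side, or 0.56 without replicate 1. The whole 95% interval lay within 2-fold in either direction for 62% of genes and within 4-fold for 96.9%. Without replicate 1 these shares were 75.4% and 98.9%. An estimate over 2-fold was found for 184 genes, 80 higher and 104 lower, and without replicate 1 for 76. The SD among the 3 DAPP before DSS arrays was over 1 for 10.6% of genes, against 2.3% for DSS arrays and 1.67% for replicates 2 and 3 of DAPP before DSS.

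Genes that DSS had altered stood near their DSS level. The 462 genes higher with DSS had median levels of 6.68, 6.62 and 6.68 on the control arrays. On the DSS arrays their medians were 9.35, 8.96 and 8.45, and on the DAPP before DSS arrays 9.36, 9.08 and 9.08. The 280 genes lower with DSS had a median of 9.42 on each control array, 7.82, 7.85 and 8.02 with DSS, and 7.85, 7.98 and 7.87 with DAPP before DSS. In both sets all 6 DSS-treated arrays lay far from control, and the DAPP before DSS arrays overlapped or bordered the range of DSS alone. The DSS arrays also chose these genes, so their own medians are not an independent measure.

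Inflammatory mediators gave no difference past the test. Tnf, the cytokine TNF, read 7.71, 7.22 and 7.13 with DSS and 6.97, 6.77 and 7.97 with DAPP before DSS, against a control mean of 5.38. The groups overlapped, and the difference was -0.12 (95% interval -0.94 to 0.71, limma adjusted p = 0.953), and 0.02 without replicate 1. Il6, interleukin-6, read 9.29, 8.54 and 6.52 with DSS and 8.95, 8.19 and 7.17 with DAPP before DSS. Its difference was -0.01 and its interval, -1.36 to 1.33, allowed over 2-fold either way. Without replicate 1 the difference of Il6 was -0.44 (95% interval -1.86 to 0.99). Il1b, interleukin-1 beta, read 12.35, 11.32 and 11.46 with DSS, and 10.33, 11.47 and 11.90 with DAPP before DSS, with replicate 1 the lowest of the 6. Its difference was -0.47, and -0.02 without that array. Ptges, the inducible synthase of prostaglandin E2, had a difference of 0.07 (95% interval -0.55 to 0.69, limma adjusted p = 0.966), and 0.00 without replicate 1. By another Ptges probe, at a mean level of 6.38, it was 0.62, or 0.5 without replicate 1. Icam1, the endothelial and epithelial adhesion molecule for leukocytes, had one of -0.01 (95% interval -0.56 to 0.54), and 0.19 without replicate 1.

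Of 17 cytokines and cytokine receptors tested, 8 lay higher and 9 lower with DAPP before DSS, with a median difference of -0.01, or 0.02 without replicate 1. Over all genes the median was 0.00 and 49.9% were higher, and without replicate 1 it was -0.01 and 49.2%. Of 22 chemokines, 15 lay higher, and the median was 0.14, or -0.02 without replicate 1. Cxcl1, a neutrophil attractant, read 13.14, 13.40 and 11.10 with DSS and 13.36, 12.95 and 12.39 with DAPP before DSS, so that the groups overlapped. Its difference was 0.35, and 0.12 without replicate 1. Cxcl10, the interferon-induced T cell attractant, was the most variable: 9.77, 8.22 and 6.70 with DSS, and 4.80, 6.98 and 9.20 with DAPP before DSS. The difference of Cxcl10 was -1.24, and -0.14 without replicate 1, where Cxcl10 lay below that array's lowest detected level, 5.7.

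Il4ra, the receptor chain shared by interleukins 4 and 13, was the 1 member of 17 in the cytokine list whose groups did not overlap, a share near the 6.42% over all genes. It read 5.58, 5.14 and 4.73 with DSS, and 6.64, 6.41 and 5.76 with DAPP before DSS. All 3 DAPP arrays were above all 3 DSS arrays, the control mean was 4.74, and the difference was 1.12 (SE 0.26, limma adjusted p = 0.844), or 0.94 without replicate 1. On replicates 2 and 3 of DSS, Il4ra lay below the lowest detected levels of those arrays, 5.28 and 5.34. Il4ra could not pass the detection filter without the DAPP before DSS arrays, where it is high. Its difference and lack of overlap are therefore partly fixed by the filter. Birc3, a ubiquitin ligase of TNF receptor signalling and itself an NF-kappaB target, read 6.21, 6.19 and 5.63 with DSS and 7.18, 7.61 and 6.64 with DAPP before DSS. Its groups did not overlap, and the difference was 1.13, and 1.11 without replicate 1. Of 21 genes of the TNF and NF-kappaB list 15 lay higher, at a median of 0.17, or 0.13 without replicate 1. Birc3 and Ikbkb were its 2 members without overlap, where 6.42% of all genes had none. Ikbkb, a kinase that releases NF-kappaB, lay on the lower side, at 8.38, 7.78 and 7.82 with DSS and 6.93, 7.69 and 7.68 with DAPP before DSS, and its difference was -0.56, or -0.30 without replicate 1. Rela, the p65 subunit, had a difference of 0.24 (95% interval -0.17 to 0.66), and Nfkbia, the inhibitor that NF-kappaB induces, one of 0.22 (95% interval -0.31 to 0.76). Without replicate 1 these were 0.36 and 0.13. Another Nfkbia probe, at a mean level of 8.46, had a difference of 1.24, and 0.55 without replicate 1. The interval of Nfkbia thus holds for its brightest probe only.

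Leukocyte markers gave no difference past the test. None of 19 neutrophil, 17 macrophage and monocyte or 12 T and NK cell genes had groups that did not overlap, and of all genes only 6.42% had such groups. The medians of these lists were 0.26, 0.29 and -0.04, and 0.08, 0.14 and -0.10 without replicate 1. S100a8, a calprotectin subunit of neutrophils, read 14.73, 14.57 and 13.23 with DSS and 14.73, 14.30 and 13.97 with DAPP before DSS, against a control mean of 7.33. Its difference was 0.16, and -0.04 without replicate 1. The neutrophil median was -0.32 without replicate 3 of DSS, the array on which S100a8, Cxcl1 and Il6 were lowest. In whole colon, fewer cells of a type and less RNA per cell cannot be told apart.

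Acute phase genes included members on both sides. Lbp, the lipopolysaccharide-binding protein, read 8.57, 8.83 and 8.12 with DSS, and 9.56, 9.34 and 8.89 with DAPP before DSS, with no overlap. Orm2, the plasma carrier orosomucoid 2, read 7.68, 7.71 and 8.29 with DSS, and 5.79, 7.43 and 7.10 with DAPP before DSS, again with no overlap but lower. The differences were 0.76 and -1.12, or 0.61 and -0.63 without replicate 1, and limma adjusted p was 0.844 for both. The acute phase and complement list had 1 member without overlap higher and 2 lower among 13, at a median of 0.10, or 0.20 without replicate 1. Over all genes the shares without overlap were 3.72% higher and 2.7% lower.

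The antioxidant lists had medians close to 0. The NRF2 list, 19 genes tested, had a median of -0.04, and 19 other antioxidant genes a median of 0.00. Without replicate 1 these were -0.02 and -0.05. Nfe2l2, which encodes NRF2, read 8.76, 8.95 and 8.74 with DSS, and 6.79, 9.63 and 8.83 with DAPP before DSS. Replicate 1 was the lowest of the 6 and replicate 2 the highest, and the difference changed from -0.40 to 0.41 when replicate 1 was left out. Hmox1, heme oxygenase 1, read 8.85, 8.12 and 7.46 with DSS and 8.83, 8.36 and 8.19 with DAPP before DSS. The groups overlapped, at a difference of 0.31 (95% interval -0.55 to 1.18), and 0.13 without replicate 1.

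Of 19 genes of the NRF2 list 1 lay higher without overlap and 2 lower, and of the 19 other antioxidant genes 0 and 1. Over all genes 3.72% lay higher without overlap and 2.7% lower. Nqo1, a quinone reductase and NRF2 target, read 7.69, 7.73 and 7.71 with DSS and 5.31, 7.53 and 7.54 with DAPP before DSS. It was lower on all 3 DAPP arrays, but the difference of -0.91 shrank to -0.17 without replicate 1, where Nqo1 lay below that array's lowest detected level, 5.7. Gpx1, a glutathione peroxidase, was also lower on all 3, with 14.23, 14.01 and 14.05 against 12.32, 13.98 and 13.93. Its difference was -0.68, and -0.14 without replicate 1. Ftl1, the iron-storing ferritin light chain, lay higher on all 3 DAPP arrays, at 14.08, 13.48 and 13.65 against 13.13, 13.19 and 12.81. Its difference was 0.69 and 0.52 without replicate 1, whereas Fth1, the heavy chain, had one of 0.01, and 0.09 without it. The superoxide dismutases Sod1 and Sod2 had differences of 0.08 (95% interval -0.37 to 0.54) and 0.33 (95% interval -0.18 to 0.84), or -0.09 and 0.13 without replicate 1. For Cat, catalase, the difference was 0.00, and 0.41 without replicate 1.

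Ppargc1a, the coactivator PGC-1 alpha, was bright in control colon at a mean of 10.25. It read 7.79, 9.10 and 8.55 with DSS and 5.18, 8.69 and 7.41 with DAPP before DSS. Replicates 1 and 3 of the DAPP group were below all DSS arrays and replicate 2 lay within them. On replicate 1 Ppargc1a lay below the lowest detected level of that array, 5.7. The difference was -1.39 (95% interval -2.85 to 0.07, limma adjusted p = 0.844), and -0.43 without replicate 1. Tfam and Nrf1, which drive mitochondrial DNA maintenance and respiratory genes, had differences of 0.09 (95% interval -0.43 to 0.61) and 0.05 (95% interval -0.44 to 0.55), or -0.11 and -0.12 without replicate 1. The list of mitochondrial biogenesis and citrate cycle genes had a median of -0.01 over 23 genes, or -0.04 without replicate 1. Of 33 oxidative phosphorylation genes 12 lay higher, or 7 without replicate 1, at medians of -0.10 and -0.11. These turned to 0.18 and 0.11 when arrays were scaled to equal medians, a scaling that shifted the median of all genes by 0.14 and 0.23.

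**Figure D3:**
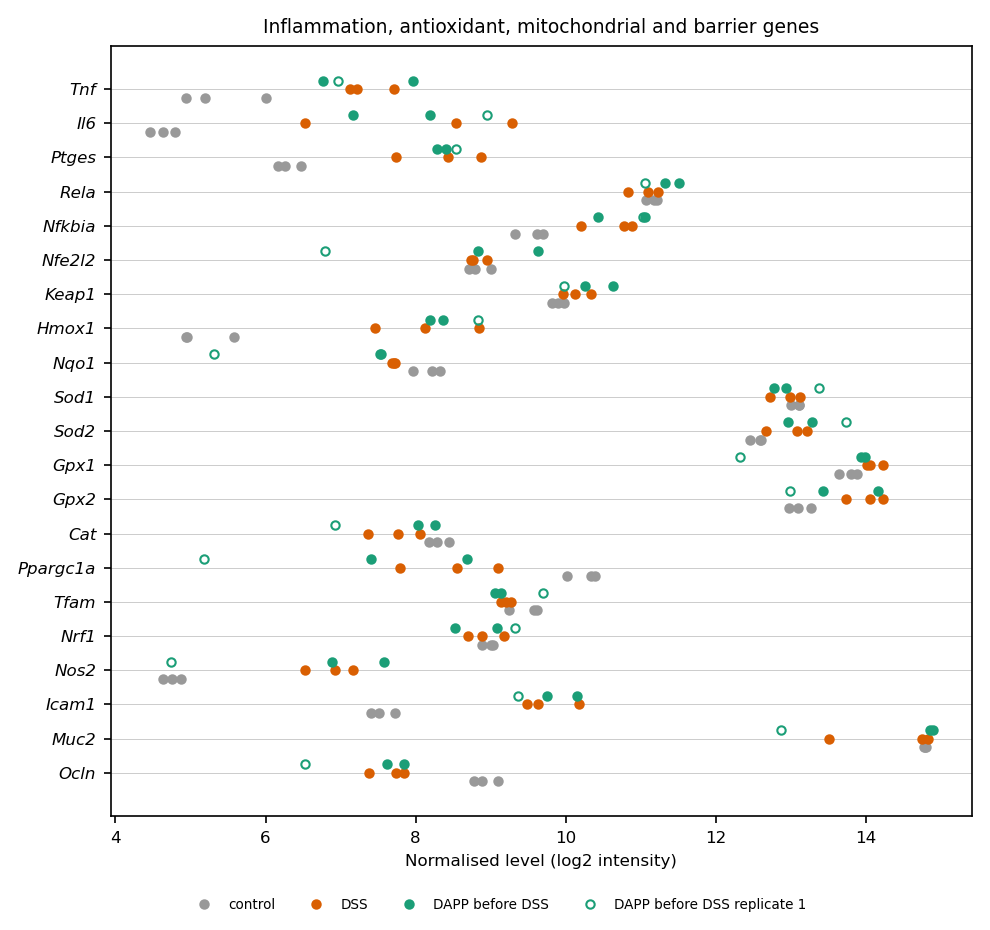
Normalised level (log2 intensity, x axis) of 21 genes of inflammation, antioxidant defence, mitochondria and barrier, with 1 point per control, DSS and DAPP before DSS array and replicate 1 of DAPP before DSS as an open circle. Green and orange points overlap for all genes except Nqo1 and Gpx1, and for Nfe2l2, Nqo1, Gpx1, Cat, Ppargc1a, Nos2, Muc2 and Ocln the open circle lies over 1 log2 unit below replicates 2 and 3.

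The epithelial lists depended on replicate 1. Of 25 absorptive colonocyte genes 4 lay higher with DAPP before DSS, at a median of -0.33. Without replicate 1, 14 lay higher and the median was 0.03. The tight and adherens junction list gave 5 of 19 at -0.22, and 14 of 19 at 0.09 without it. The cholesterol synthesis list gave 3 of 17 at -0.48, and 5 of 17 at -0.10. Ocln, the junction protein occludin, read 7.38, 7.74 and 7.85 with DSS and 6.52, 7.84 and 7.62 with DAPP before DSS, so that replicate 1 alone lay below the DSS range. Its control mean was 8.92, and its difference was -0.32, or 0.08 without replicate 1.

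A few epithelial genes kept their side on all 3 arrays by their brightest probe. Of 25 absorptive colonocyte genes 3 lay lower without overlap and 0 higher, and of 16 goblet cell genes 1 lay lower and 0 higher. Over all genes 2.7% lay lower without overlap and 3.72% higher. Trpm6, the magnesium channel of colon and kidney epithelium, read 10.11 to 10.24 on the control arrays and 8.41, 7.46 and 8.64 with DSS. With DAPP before DSS it read 6.54, 7.19 and 6.71, below every DSS array, and in the DAPP during DSS mice 7.45, 7.67 and 7.32. Its difference was -1.36 (SE 0.29, limma adjusted p = 0.844), and -1.22 without replicate 1. Car1, the colonocyte carbonic anhydrase 1, read 14.05, 14.07 and 14.17 with DSS and 13.32, 13.97 and 13.54 with DAPP before DSS. Zg16, a goblet cell lectin, read 14.69, 15.01 and 14.99 against 14.57, 14.56 and 14.66. The differences of Car1 and Zg16 were -0.49 and -0.30, and -0.34 and -0.29 without replicate 1. Lgals4, an epithelial galectin, lay the other way, at 14.38, 14.65 and 14.32 with DSS and 14.75, 14.75 and 14.98 with DAPP before DSS, a difference of 0.38, or 0.42 without replicate 1. Another Lgals4 probe had 0.37, but a further one had -0.36, and without replicate 1 these were 0.44 and 0.24.

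Muc2 read 13.51, 14.82 and 14.75 with DSS, and 12.87, 14.89 and 14.85 with DAPP before DSS, so that each group held 1 low array. Its difference was -0.16, and 0.50 without replicate 1. Reg3g, a bactericidal lectin induced by microbes, read 9.02, 12.66 and 10.01 with DSS and 11.88, 11.50 and 11.94 with DAPP before DSS. Its difference was 1.21, and 1.16 without replicate 1, but the groups overlapped. Reg3a, a related lectin, read 4.99 on replicate 1 of DSS and 13.47 and 11.88 on the other DSS arrays, against 13.68, 11.37 and 12.63 with DAPP before DSS. The difference of Reg3a was 2.45, and 1.89 without replicate 1 of DAPP before DSS. Its reading of 4.99 lay below the lowest detected level of that DSS array, 5.5. Exocrine pancreas genes followed the same arrays: their mean level was 6.33, 12.80 and 13.46 with DSS and 13.45, 11.78 and 12.58 with DAPP before DSS, and 6.33 to 7.80 in control colon. Their median difference was 2.09, 21 of 22 lay higher, and the median was 1.53 without replicate 1 of DAPP before DSS and -0.53 without replicate 1 of DSS. The part of this signal in other results was not tested beyond a fit with the list's mean as a covariate, in which limma again called 0 genes and 404 had an unadjusted p under 0.05.

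**Figure D4:**
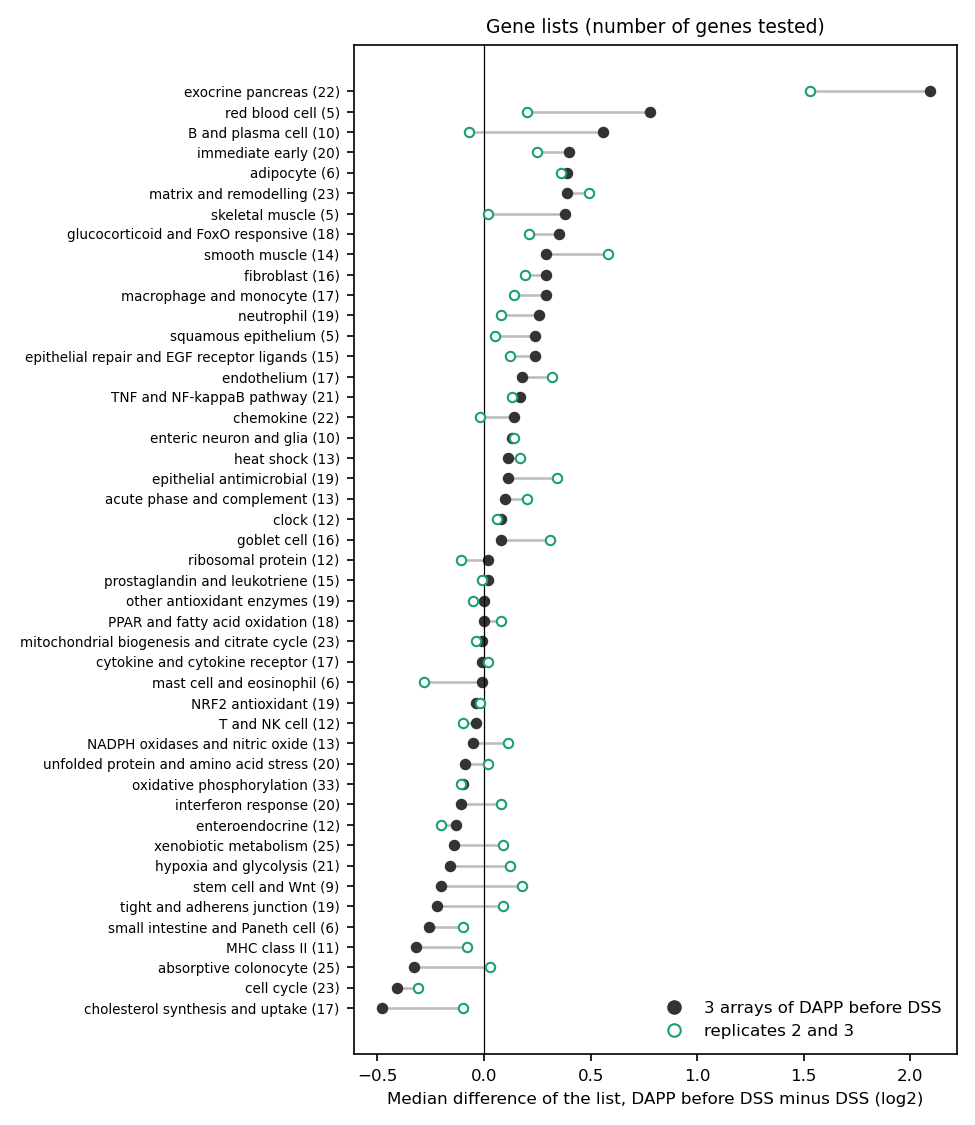
Each row is a gene list, with its number of genes tested, and the x axis gives the median log2 difference, DAPP before DSS minus DSS, with all 3 DAPP arrays (filled) and with replicates 2 and 3 (open). Lists of smooth muscle, matrix and endothelium moved further above 0 when replicate 1 was left out, and lists of colonocytes, junctions, cholesterol synthesis and B cells moved towards 0 or across it.

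By list median, genes of smooth muscle, matrix and vessels lay on the high side with DAPP before DSS. Genes of a list can vary together, so counts of genes on the same side are not counts of separate results. Of 14 smooth muscle genes 13 lay higher, at a median of 0.29, and without replicate 1 all 14 did, at 0.58. The sign held in all 18 alternatives run for each, over ranges of 0.20 to 0.58 and 0.40 to 0.83. Their median difference between DSS and control was -1.30. The mean of the list was 11.45, 11.44 and 11.26 on the control arrays, 9.97, 10.34 and 10.15 with DSS, and 10.09, 10.71 and 10.62 with DAPP before DSS. Replicates 2 and 3 lay between DSS and control, and replicate 1 lay within the DSS range. On the DAPP during DSS arrays the list mean was 10.68, 10.32 and 10.07.

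Tpm2, muscle tropomyosin 2, read 11.83, 12.29 and 11.58 with DSS and 12.38, 12.52 and 12.67 with DAPP before DSS. All 3 DAPP arrays were above all 3 DSS arrays, and the difference was 0.62 (SE 0.22), or 0.69 without replicate 1, with a limma adjusted p of 0.844. Lmod1, which nucleates actin filaments in smooth muscle, read 6.94, 7.47 and 7.48 with DSS and 7.88, 7.87 and 8.01 with DAPP before DSS, and its groups did not overlap either. The difference of Lmod1 was 0.63, and 0.65 without replicate 1. Des (desmin) and Tagln (transgelin), named here after their values were seen, were the other 2 of the 4 genes whose groups did not overlap. Those 4 of 14 genes all lay higher, where 3.72% of all genes did so without overlap. Without replicate 1 the groups did not overlap in 10 of 14, all with DAPP before DSS higher, where 8.31% of all genes did so. Acta2, smooth muscle actin, was the exception in direction by its brightest probe, at -0.16 with all arrays and 0.04 without replicate 1. Its other probes lay on both sides, from -0.23 to 0.2, and from 0.29 to 0.75 without replicate 1.

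**Figure D5:**
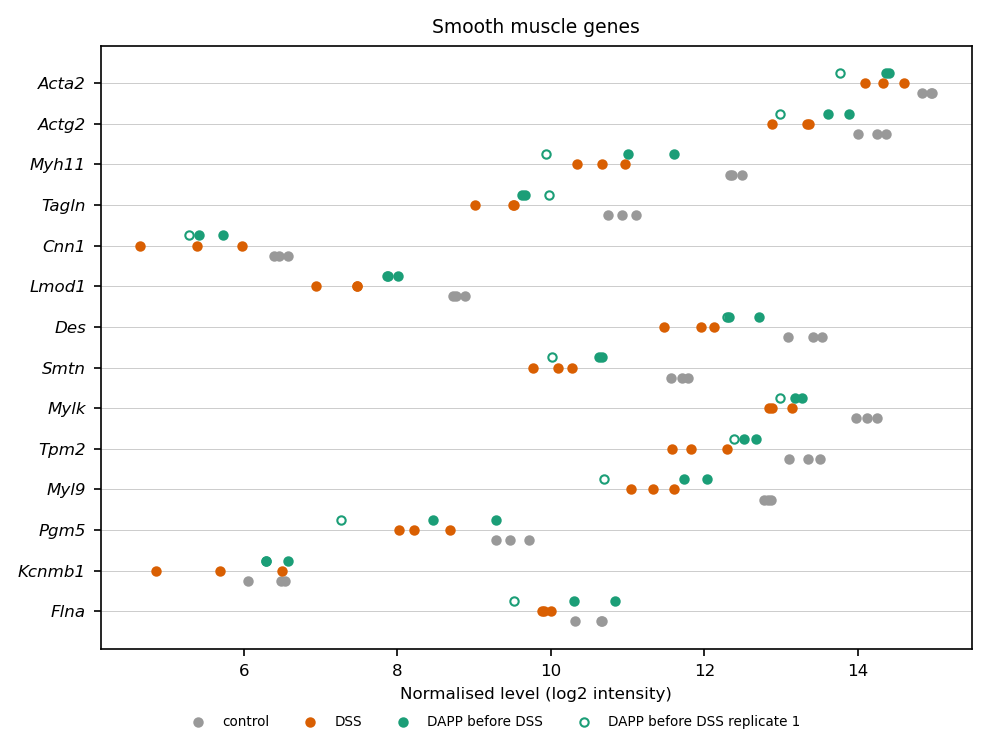
Normalised level (log2 intensity, x axis) of the 14 smooth muscle genes tested, with 1 point per control, DSS and DAPP before DSS array and replicate 1 of DAPP before DSS as an open circle. Filled green points lie at or above the orange points for most genes and, except for Kcnmb1 and Flna, below the grey control points, while open circles spread to both sides.

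Of 23 matrix and remodelling genes 18 lay higher, at a median of 0.39, and without replicate 1, 22 did, at 0.49. This sign also held in the 18 alternatives, from 0.13 to 0.58 with replicate 1, and the median was lowest without replicate 3 of DSS. The list mean was 10.72, 10.29 and 9.97 with DSS and 10.25, 10.87 and 10.69 with DAPP before DSS, so that the groups overlapped. On the DAPP during DSS arrays it was 10.74, 10.64 and 10.42. Col3a1, a fibrillar collagen, read 11.55, 10.76 and 10.98 with DSS and 11.96, 11.58 and 11.89 with DAPP before DSS, with a control mean of 9.81. Its groups did not overlap, and its difference was 0.71 (SE 0.23), or 0.64 without replicate 1. Col3a1 was the 1 member of 23 without overlap, where 6.42% of all genes had none. Another Col3a1 probe, at a mean level of 6.42, had 0.23, or 0.64 without replicate 1. Mmp3, the protease stromelysin 1, read 12.86, 12.77 and 11.02 with DSS and 13.01, 12.86 and 12.79 with DAPP before DSS, so that replicate 3 of DSS lay far below the other 5 arrays. Its difference was 0.67, and 0.61 without replicate 1 of DAPP before DSS. Other Mmp3 probes had 0.06 and 0.23, or 0.72 and 0.46 without that replicate. Thbs1, the matrix glycoprotein thrombospondin 1, read 7.61, 7.08 and 6.79 with DSS, and 4.56, 8.55 and 7.63 with DAPP before DSS. Its difference was -0.25 with replicate 1 and 0.93 without it. On that array Thbs1 lay below the lowest detected level, 5.7.

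Of 17 endothelial genes 12 lay higher, at a median of 0.18, and 14 at 0.32 without replicate 1. The list mean was 8.84, 8.53 and 8.38 with DSS and 8.59, 8.98 and 8.83 with DAPP before DSS, so that the groups overlapped. On the DAPP during DSS arrays it was 9.22, 8.72 and 8.55. Pecam1, the junction molecule CD31, read 8.07, 7.69 and 7.45 with DSS and 9.42, 8.43 and 8.25 with DAPP before DSS. Robo4, a receptor of vascular endothelium, read 9.12, 8.94 and 8.63 against 10.28, 9.48 and 9.38. Neither gene's groups overlapped, at differences of 0.96 and 0.82, or 0.60 and 0.53 without replicate 1. They were the 2 of 17 endothelial genes without overlap, where 3.72% of all genes lay higher without overlap. Another Pecam1 probe, at a mean level of 8.01, had a difference of only 0.11, or 0.43 without replicate 1. In the DAPP during DSS mice Pecam1 read 8.85, 8.16 and 7.83 and Robo4 9.60, 9.12 and 9.0. Of 16 fibroblast genes 13 lay higher at 0.29, and 14 at 0.19 without replicate 1. The fibroblast list mean overlapped too, at 10.07, 9.49 and 9.45 with DSS and 10.18, 9.87 and 9.92 with DAPP before DSS. On the DAPP during DSS arrays it was 10.21, 9.8 and 9.77. Col14a1, a fibril-associated collagen, was the 1 member of 16 without overlap, a share near the 6.42% over all genes. It read 7.0, 6.51 and 6.90 with DSS and 8.16, 7.01 and 7.90 with DAPP before DSS, a difference of 0.89, or 0.65 without replicate 1. Another Col14a1 probe, at a mean level of 5.77, had 0.05, or 0.34 without replicate 1.

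Immediate early genes and glucocorticoid and FoxO responsive genes also lay high, at medians of 0.40 (16 of 20 higher) and 0.35 (16 of 18 higher), or 0.25 and 0.21 without replicate 1. Ccn2, a connective tissue growth factor, read 12.12, 11.20 and 11.11 with DSS and 12.26, 12.41 and 11.82 with DAPP before DSS, overlapping on 1 DSS array, at a difference of 0.69, or 0.64 without replicate 1. The glucocorticoid and FoxO median without replicate 1 turned to -0.11 when replicate 2 was also left out.

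Cell cycle genes lay low. Of 23 tested 1 lay higher, at a median of -0.41, and 2 did without replicate 1, at -0.31. The list mean was 9.31, 8.15 and 9.03 with DSS and 8.21, 7.77 and 9.29 with DAPP before DSS, so that both groups were spread, and replicates 1 and 3 lay within the DSS range and replicate 2 below it. Tyms, thymidylate synthase, read 10.66, 9.42 and 10.26 with DSS and 8.20, 9.03 and 10.05 with DAPP before DSS. Its difference was -1.02, and -0.57 without replicate 1. In none of the 23 genes were the groups apart, where 6.42% of all genes had groups apart. With replicate 1 left out the median ranged from -1.08, without replicate 3, to 0.46, without replicate 2.

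Of all genes, 34 differed by over 2-fold with groups that did not overlap, 13 higher and 21 lower with DAPP before DSS. None passed the test, and limma adjusted p was 0.844 for all those named next. Hoxa11, a homeobox transcription factor of body patterning, read 4.70, 4.89 and 5.08 with DSS, where no array detected it, and 7.10, 6.06 and 6.11 with DAPP before DSS, where all did. It was at least 2.06-fold higher with DAPP before DSS, and its fitted difference was 1.53, or 1.19 without replicate 1. Having no detected DSS array, Hoxa11 passed the detection filter only through the DAPP before DSS arrays, the group where it is high, so that its difference and its rank are partly fixed by the filter. It was also undetected in control colon, at a mean of 4.80, and in the DAPP during DSS mice it read 6.04, 5.77 and 5.20.

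Abca8a, a lipid transporter, read 5.28, 5.88 and 5.16 with DSS and 7.29, 7.60 and 6.22 with DAPP before DSS, with a control mean of 7.54. Its difference was 1.60 (SE 0.40), and 1.47 without replicate 1. On replicates 1 and 3 of DSS, Abca8a lay below the lowest detected levels of those arrays, 5.5 and 5.34. Abca8a too could not pass the filter without the DAPP before DSS arrays, so its difference from DSS is partly fixed by the filter. Spon1, an extracellular matrix adhesion protein, read 6.80, 6.0 and 6.21 with DSS and 7.69, 7.31 and 7.15 with DAPP before DSS, where control colon had a mean of 4.76. Map3k6, a stress-activated kinase, read 8.74, 8.85 and 8.24 against 10.10, 9.59 and 9.16. Spon1 had a difference of 1.04 and Map3k6 one of 1.01, or 0.89 and 0.77 without replicate 1. By group mean, Spon1 and Map3k6 thus lay further from control than with DSS alone, and Abca8a nearer to it. In the DAPP during DSS mice Abca8a read 6.80, 5.41 and 5.84, Spon1 7.15, 7.26 and 6.53, and Map3k6 8.78, 8.62 and 8.45. Pak1ip1, Art4, Sparcl1, Igsf6, 0610009L18Rik and E030030I06Rik completed the 12 higher genes with Il4ra and Birc3. By the mean of all 3 DAPP before DSS arrays, Igsf6, undetected with DSS, was at least 1.78-fold higher. Igsf6 too passed the filter only through the DAPP before DSS arrays, and its fitted difference was 1.01, or 0.49 without replicate 1.

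Among those lower with DAPP before DSS, Frk, an epithelial kinase of the Src family, read 10.82, 10.87 and 10.29 with DSS and 9.36, 10.08 and 9.49 with DAPP before DSS. Its difference was -1.02 (SE 0.27), and -0.88 without replicate 1, and its control mean was 10.43. Sorbs2, an adaptor of the actin cytoskeleton, read 6.18, 6.93 and 6.99 with DSS and 4.54, 5.82 and 5.55 with DAPP before DSS, a difference of -1.40, or -1.02 without replicate 1. On replicate 1 of DAPP before DSS, Sorbs2 lay below the lowest detected level, 5.7. Nemf, a factor of ribosome quality control, had the difference of -1.44, which was -0.90 without replicate 1. Zfp994, Arid4b, Rab27b, Hook1, Smc4, Khdc1c and Smarca5-ps, with Trpm6 and Orm2, completed the 12, and their differences without replicate 1 were -1.22 to -0.57. Smc4, a condensin subunit, turned from -1.05 to 0.14 when the 6 arrays were normalised and fitted alone, and its other probes had 0.13 and -0.38. Another probe of Rab27b, a GTPase of secretory vesicles, had 0.09 against -1.09.

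The groups given DAPP before and during DSS were set against each other in the same fit. Their column names also carry different numbers without a unit, so timing cannot be told apart from what those numbers stand for. Limma called 0 of 10971 genes, with 430 (3.92%) at an unadjusted p under 0.05, and again 0 without replicate 1, with 334 (3.04%). No difference from DSS alone was therefore shown to be particular to the mice given DAPP before DSS. Both DAPP groups were compared with the same 3 DSS arrays.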

How the data were processed

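The deposited unnormalised table holds the linear signal intensity of each probe together with, as the deposited headers name it, its detection p-value. Per the submitters' processing notes the authors used GenomeStudio, and the sources used here do not state its background setting. Per the labels' protocols, Trizol RNA was made into biotinylated cRNA. Blank lines (1949) were left out, and 0 columns stayed unused.

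The 12 arrays were corrected and quantile-normalised with neqc (offset 16) in limma 3.58.1 under R 4.3.3. Of 19886 kept probes 16943 had 1 symbol in the platform annotation, and each gene was read by its brightest kept probe. A 4-group limma model was fitted to all 12 arrays (8 residual degrees of freedom), and again without replicate 1 of DAPP before DSS, with Benjamini-Hochberg adjustment over 10971 genes. Only the limma fit was run on simulated data, with independent noise and no array that stood apart. That run did not test normalisation, the detection filter or the effect of replicate 1. "At least" folds use the lowest detected signal of each array and the mean of all 3 DAPP before DSS arrays, and they are not confidence limits.

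The members and the 47 gene lists were chosen with earlier results of these data known. Named genes are, per direction, the 12 with the smallest p among genes over 2-fold whose groups do not overlap, and the 12 on which replicate 1 deviates most. The inflammation, antioxidant, mitochondrial and barrier genes are also named, and per other list the 4 brightest and the 2 largest differences each way. A rule for genes called without replicate 1 found none. Same-numbered arrays were not treated as pairs in the main fit. Their deviations correlated at 0.0983, 0.0889 and 0.414, and those of arrays with different numbers at -0.437 to 0.21. So few correlations do not settle whether the arrays pair. Array number limits the precision.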

Additional observations from a re-analysis of the deposited data

How the results depend on the processing

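The count of 0 genes held under each of the 18 alternatives run with all arrays and the 18 run without replicate 1 of DAPP before DSS, of which normalisation of the 11 other arrays alone was added after seeing the data. The alternatives covered the 6 arrays alone, other background, offset and scaling, the authors' processed values, other probe filters, array weights and each array left out. Limma's smallest adjusted p ranged from 0.217 (without replicate 2 of DSS) to 1, and from 0.0724 (no detection filter) to 1. Genes at an unadjusted limma p under 0.05, 486 with all arrays, numbered 160 with the 6 arrays alone, 841 with equal medians, 259 with array weights, and, with DAPP before DSS reduced by replicate 2 or replicate 3, 1232 and 1263. Without replicate 1 they numbered 585, and 259 with the 5 arrays alone, 1286 with equal medians, 284 with array weights and 942 without replicate 3 of DSS. With replicate number as a block (replicate block) limma called 0 genes, with 561 at an unadjusted p under 0.05, and no call changed. Leaving out each array in turn gave 0 calls every time. Where a group kept 1 array, that array was assumed to vary like the others. Among 371 named genes, 407 of 6580 recomputed differences changed sign and 262 shifted by over 1 residual SD. The causes were not tested.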

Other observations

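Several genes outside the pathways described above had groups that did not overlap, none past the test (limma adjusted p = 0.844 for each). Clock, a core transcription factor of the circadian clock, read 10.80, 10.66 and 10.49 with DSS and 10.17, 10.31 and 9.99 with DAPP before DSS. Its difference was -0.49, or -0.50 without replicate 1 of DAPP before DSS. Another Clock probe had -0.14, and 0.24 without that replicate. The other 11 clock genes tested overlapped, and of all genes 6.42% had groups that did not. Atf4, the transcription factor of amino acid stress, read 11.93, 12.20 and 11.56 with DSS and 13.14, 12.29 and 12.32 with DAPP before DSS. Another Atf4 probe had a difference of -0.36, against 0.69 for the brightest probe, and the probes differed by less without replicate 1, at 0.27 and 0.41. Scd1, a fatty acid desaturase, read 9.21, 9.20 and 9.12 with DSS and 9.77, 9.62 and 9.58 with DAPP before DSS, where control colon had a mean of 10.52. Its difference was 0.48, and 0.42 without replicate 1.

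Ribosomal protein genes lay on both sides. Rpl32 read 14.28, 14.12 and 13.97 with DSS and 14.67, 14.52 and 14.55 with DAPP before DSS, whereas Rpl27 read 14.41, 14.42 and 14.40 against 13.79, 14.09 and 14.09. Their differences were 0.46 and -0.42, or 0.41 and -0.32 without replicate 1. The median of 12 ribosomal protein genes was 0.02 with 8 higher, and -0.11 with 4 higher without replicate 1, and it was 0.39 with all arrays scaled to equal medians. Orm1, the plasma carrier orosomucoid 1, had the largest difference of the acute phase list: it read 6.94, 7.02 and 9.72 with DSS and 7.05, 5.72 and 6.09 with DAPP before DSS, so that replicate 3 of DSS stood far above the other 5 arrays. Its difference was -1.61, and -1.99 without replicate 1 of DAPP before DSS.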
